A study of Rattus norvegicus with 20 samples.

Results

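The effect of vagus nerve stimulation on the uninjured rat lung was examined by comparing 5 Sham+VNS libraries with 5 Sham libraries, 10 of the 20 libraries of the series. Sham animals had their abdomen opened in the midline and the caecum handled, without ligation or puncture, and Sham+VNS animals had the same sham operation plus stimulation of the right cervical vagus nerve with current. The labels do not give strain, sex, age, stimulation settings, anaesthesia or the interval before lung was taken. They also do not say whether Sham animals had the neck opened without current, so stimulation cannot be told apart from the neck surgery that it needs. The other 10 libraries came from animals with caecal ligation and puncture (CLP), without or with the stimulation, and entered the estimate of spread and the test of whether the effect differed after CLP. Nothing states that each library came from its own animal or how samples were batched, so p-values measure the spread between these libraries, which may be partly technical.

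The vagus nerve carries sensory fibres from the lung and motor fibres that release acetylcholine near airway smooth muscle, glands and ganglion cells. Its stimulation is best known for the inflammatory reflex, in which vagal and splenic nerve signals reduce the release of tumour necrosis factor and other cytokines from macrophages, with the alpha7 nicotinic receptor, encoded by Chrna7, as a central component. Cervical stimulation can also act on heart rate, blood pressure, breathing and the adrenal axis, so genes of noradrenaline handling, glucocorticoid response and the circadian clock were followed beside cytokines.

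The deposited gene table gives estimated counts, and library totals ran from 13785057 to 14186116 in Sham and from 13869117 to 14453181 in Sham+VNS. Levels below are CPM, counts scaled to a common library total, unless TPM is named, which is also scaled for transcript length. The lung identity of the libraries was clear: on the TPM scale the median of Sftpc, the surfactant protein of alveolar type 2 cells, was 43400 in Sham and 46600 in Sham+VNS, and that of Ager, a marker of alveolar type 1 cells, was 3310 and 3190. Tissue from outside the lung parenchyma was uneven. Adipoq, the fat cell hormone adiponectin, stood at 285 CPM in Sham replicate 1 and 96.3 CPM in Sham+VNS replicate 2, at 9.72 CPM in Sham replicate 2 and 16.2 CPM in Sham+VNS replicate 4, and at no more than 0.141 CPM in the other 6. Tnnt2, cardiac troponin T, stood at 24.6 CPM in Sham replicate 1 and 7.32 CPM in Sham replicate 5, against 0.557 to 1.74 CPM in the other 8. In a principal component analysis of the 10 libraries the first component held 29% of the variance and set Sham replicate 1 apart, and the groups were not separated. Every comparison was therefore made on all 20 libraries and again on 18, without Sham replicate 1 and Sham+VNS replicate 2.

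**Figure D1:**
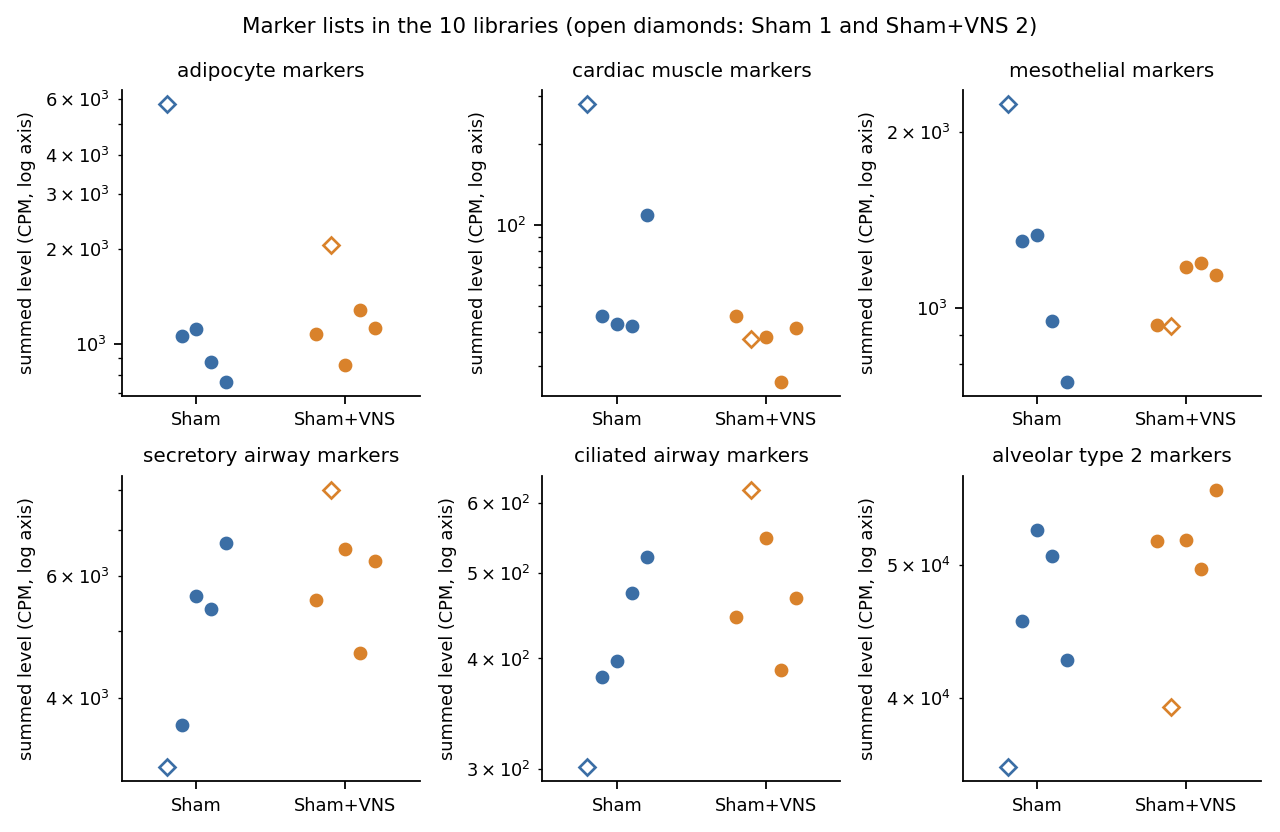
Summed CPM (log axis) of the members of 6 cell type marker lists in each Sham (blue) and Sham+VNS (orange) library, with Sham replicate 1 and Sham+VNS replicate 2 as open diamonds and every other library as a filled point. The summed adipocyte markers reached 5790 CPM in Sham replicate 1 and 2060 CPM in Sham+VNS replicate 2, and the airway markers were highest in Sham+VNS replicate 2.

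No gene passed the test for a difference between Sham+VNS and Sham. With edgeR's quasi-likelihood test 0 of 14794 genes (0%) had an adjusted p below 0.05, and the smallest adjusted p was 0.176. Without Sham replicate 1 and Sham+VNS replicate 2 the count was 0 of 14816 (0%), with a smallest adjusted p of 0.125. At an unadjusted p below 0.05, 580 genes (3.92%) had a higher and 605 (4.09%) a lower mean in Sham+VNS on all libraries, and 419 (2.83%) and 384 (2.59%) did so on 18 libraries. The 5 Sham and 5 Sham+VNS values did not overlap for 118 genes (0.798%), of which 47 were higher and 71 lower in Sham+VNS. For groups that do not differ, a split of 5 against 5 gives no overlap with a probability of 0.00794, near this share. A lack of overlap alone therefore does not set a gene apart. Without Sham replicate 1 and Sham+VNS replicate 2 the values did not overlap for 396 of 14794 genes, and smaller groups separate more often by chance.

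The precision of these libraries bounds what could have been seen. The 95% interval of the log2 fold change lay wholly within a 2-fold change in either direction for 13255 of 14793 genes (89.6%), and within a 1.5-fold change for 11043 (74.7%). The median standard error was 0.102 on the log2 scale. Among abundant genes, the 2346 with a mean of 100 CPM or more, the interval was within 2-fold for 98.5%, and among the 710 genes under 1 CPM for 34.2%. For the other genes under 1 CPM a 2-fold difference in at least 1 direction lay within the interval.

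**Figure D2:**
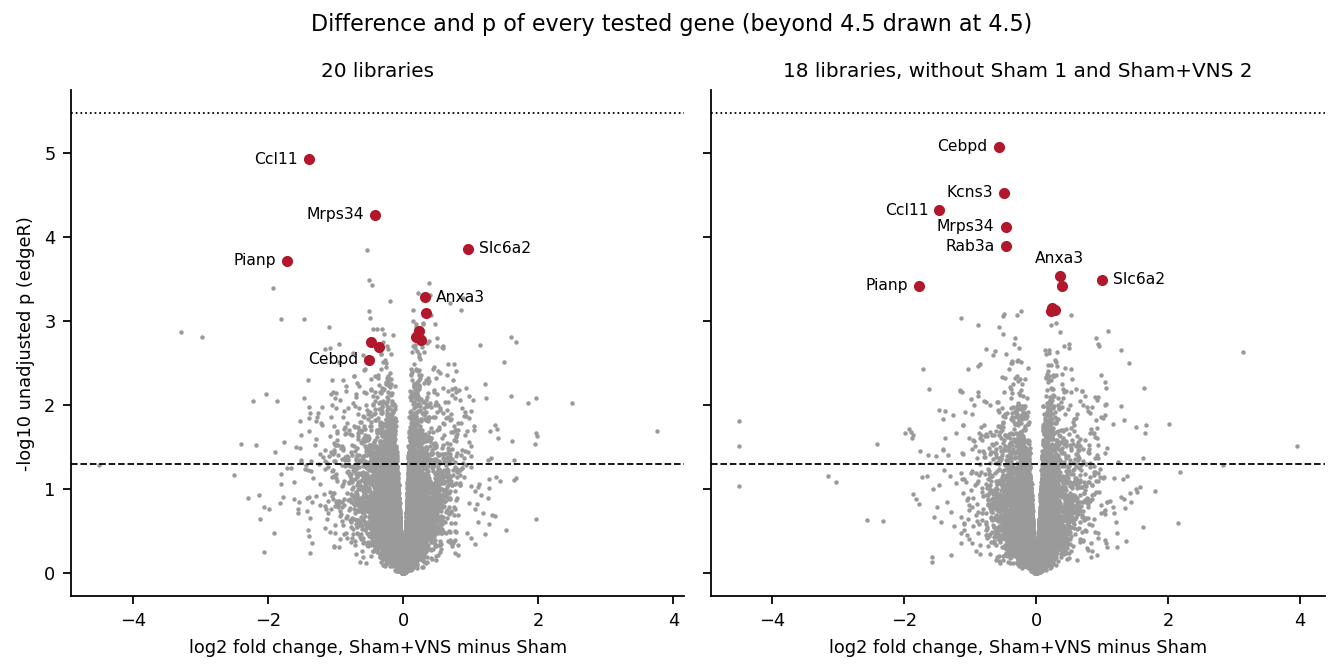
Log2 fold change (Sham+VNS minus Sham) against -log10 unadjusted edgeR p for each tested gene, with all 20 libraries on the left and 18 on the right. The dashed line is an unadjusted p of 0.05, the dotted line is the p that a lone gene would need after division by the number tested, no point reaches the dotted line, and red points are the 6 genes of lowest p in each direction in the 18-library fit, some of them named.

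The gene with the lowest p over all libraries was Ccl11 (gene ID 29397), which encodes eotaxin, a chemokine that attracts eosinophils and is made in lung by fibroblasts, smooth muscle and epithelium. Its CPM was 12.4, 15.5, 10.4, 14.8 and 16.1 in Sham replicates 1 to 5 and 6.05, 5.84, 4.46, 4.43 and 5.63 in Sham+VNS replicates 1 to 5. Every Sham+VNS library lay below every Sham library, so the groups did not overlap, and Sham replicate 1 and Sham+VNS replicate 2 lay inside their groups. The means were 13.8 ± 2.39 and 5.28 ± 0.78 CPM (SD, n = 5), a log2 fold change of -1.39 (95% interval -1.89 to -0.89, edgeR unadjusted p = 1.19e-05, adjusted p = 0.176). Over the 20 alternatives tried, the estimate stayed between -1.48 and -1.33 and the adjusted p ran from 5.57e-05 to 0.802. The gene passed with DESeq2 and in an edgeR fit to the 10 sham-operated libraries alone (adjusted p = 0.0189), in which the spread of the CLP groups was not used. Only 1 transcript of Ccl11 is in the deposited transcript table, with 22.0 to 35.4 TPM in Sham and 9.50 to 13.0 TPM in Sham+VNS.

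Slc6a2 (gene ID 83511), the transporter that clears noradrenaline from nerve endings and, in lung, from blood passing the capillary endothelium, had the largest estimate among the 6 genes of lowest p on the higher side. Its CPM was 30.1, 33.6, 31.9, 28.4 and 56.4 in Sham and 105, 52.9, 64.6, 67.6 and 61.9 in Sham+VNS. Sham replicate 5 stood above the other Sham libraries and slightly above Sham+VNS replicate 2, and all other Sham+VNS libraries lay above all Sham libraries, so the 18-library groups did not overlap. The log2 fold change was 0.97 (95% interval 0.54 to 1.39, edgeR adjusted p = 0.485) on 20 libraries and 0.99 on 18 (edgeR adjusted p = 0.631). With DESeq2 it passed, at an adjusted p of 0.00613, and over all alternatives the adjusted p reached 0.908. Of the 3 transcript models of Slc6a2, the curated RefSeq model held 99.0% of the gene's mean TPM in Sham and 97.6% in Sham+VNS.

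Cebpd (gene ID 25695), a transcription factor that is induced by glucocorticoids and by inflammatory signals, had the lowest p in the 18-library fit. Its CPM was 42.9, 87.0, 68.0, 84.4 and 83.2 in Sham and 56.0, 40.8, 51.5, 54.2 and 56.0 in Sham+VNS. The low Sham value and the lowest Sham+VNS value were those of Sham replicate 1 and Sham+VNS replicate 2, and the other 8 libraries did not overlap. The log2 fold change was -0.50 ± 0.15 (SE, edgeR adjusted p = 0.528) on 20 libraries and -0.57 ± 0.09 (edgeR adjusted p = 0.125) on 18.

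The other 4 genes of lowest p on the lower side, ranked like all 12 described here in the 18-library fit, differed less or were scarce. Mrps34, a protein of the small subunit of the mitochondrial ribosome, stood at 12.9 to 15.0 CPM in Sham and 9.35 to 11.3 CPM in Sham+VNS, with no overlap (log2 fold change -0.41 ± 0.08, edgeR adjusted p = 0.405). Pianp, a membrane protein of neurons, stood at 2.03 to 3.95 CPM in Sham and 0.428 to 1.32 CPM in Sham+VNS, again with no overlap (-1.71 ± 0.37, edgeR adjusted p = 0.485). Its counts were spread over 6 transcript models, of which a curated one held 50.7% of the mean TPM in Sham. Rab3a, a small GTPase of regulated secretion, had a log2 fold change of -0.48, and Kcns3, a modulatory potassium channel subunit, of -0.35. Rab3a was also low, at 14.0 CPM, in Sham replicate 1, and Kcns3 was 30.9 CPM in Sham+VNS replicate 2, within the Sham range.

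On the higher side the other 5 genes had small differences. Anxa3, a calcium-dependent membrane-binding annexin, had means of 362 ± 45.7 CPM in Sham and 454 ± 38.7 CPM in Sham+VNS (log2 fold change 0.33 ± 0.08, edgeR adjusted p = 0.485). Mgst2, a microsomal glutathione transferase that can make leukotriene C4, had a log2 fold change of 0.34, and Tspan2, a tetraspanin, of 0.26. Pnrc1, a nuclear receptor coactivator, stood at 0.24 with no overlap between groups, and Fbxl20, an F-box protein of ubiquitin ligases, at 0.19. None of these 12 genes passed with edgeR in either fit.

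**Figure D3:**
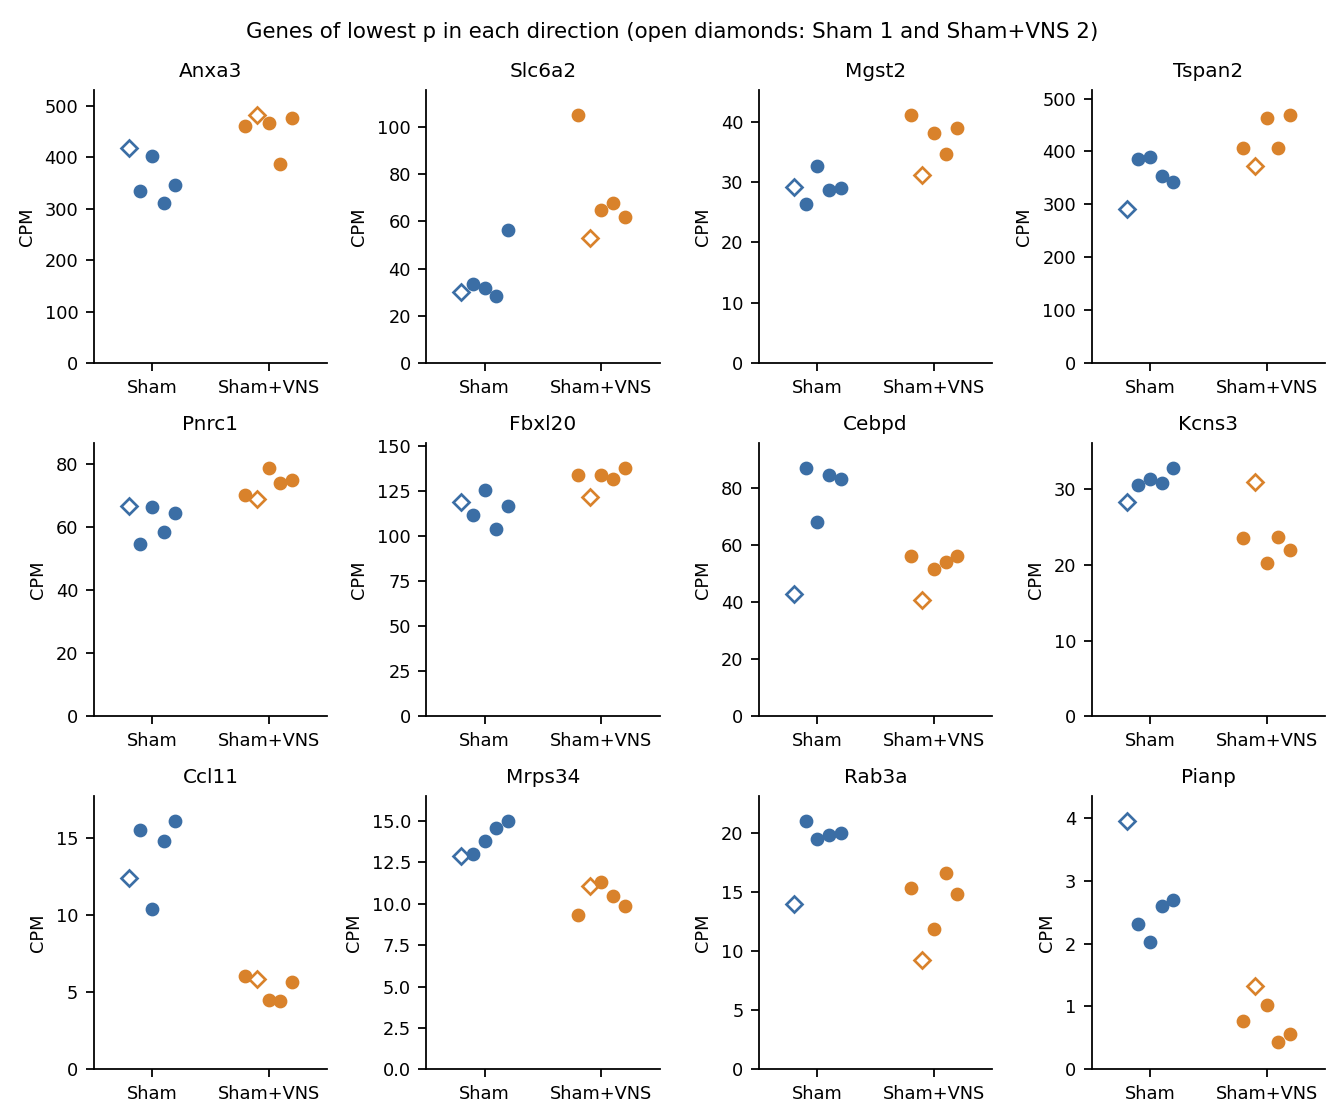
CPM (linear axes from 0) of the 12 genes of lowest p, 6 in each direction, in each Sham (blue) and Sham+VNS (orange) library, with Sham replicate 1 and Sham+VNS replicate 2 as open diamonds. Ccl11, Mrps34, Pianp and Pnrc1 have no overlap between groups, and the Cebpd groups overlap through the open diamond of Sham.

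Nerve signalling genes were followed by role. Of 17 tested genes of adrenergic receptors and noradrenaline handling, 0 passed, 2 (Slc6a2 and Grk5) were higher and 1 (Adra1d) lower at an unadjusted p below 0.05, and the median log2 fold change was -0.02, against -0.0063 over all genes. At that p 3.92% of all genes were higher and 4.09% lower. On 18 libraries 2 members were higher and 2 lower, against 2.83% and 2.59% of all genes. Grk5, a kinase that desensitises adrenergic and other G protein-coupled receptors, stood at 223 ± 10.8 CPM in Sham and 254 ± 23.9 CPM in Sham+VNS (edgeR adjusted p = 0.56). Adra1d, an alpha-1 adrenergic receptor, stood at 2.92 ± 1.1 and 1.58 ± 0.392 CPM (edgeR adjusted p = 0.603). Th and Dbh, the enzymes of noradrenaline synthesis, were too low to be tested.

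Genes of acetylcholine signalling were scarce in these lungs. Of 27 members with a row in the deposited data, 13 could be tested, 0 passed and 1 was lower at an unadjusted p below 0.05, with a median log2 fold change of -0.10. At that p 4.09% of all genes were lower. On 18 libraries 0 members were higher and 0 lower, against 2.83% and 2.59% of all genes. Chrna7 stood at 0.212, 0.629, 0.653, 0.493 and 0.622 CPM in Sham and at 0.352, 1.18, 0.618, 0.500 and 0.563 CPM in Sham+VNS. The groups overlapped, and the estimate was 0.30 (95% interval -0.57 to 1.17) on 20 libraries and -0.23 on 18, so its sign turned with the 2 libraries. The muscarinic receptor Chrm2 stood at 0.680 to 1.00 TPM in Sham and 0.540 to 1.05 TPM in Sham+VNS, and Chrm3, which contracts airway muscle, at 0.280 to 0.890 and 0.270 to 0.750 TPM. Colq, the collagen tail that anchors acetylcholinesterase, was the member under that p, with 1.38 ± 0.766 CPM in Sham and 0.687 ± 0.269 CPM in Sham+VNS. Its estimate went from -1.0 to -0.53 on 18 libraries. Chat, which makes acetylcholine, was represented by 1 count over the Sham libraries and 2 over the Sham+VNS libraries.

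Among 20 tested neuropeptides, neurotrophins and their receptors, 0 passed, 2 were higher and 1 was lower at an unadjusted p below 0.05, and the median was 0.09. Over all genes 3.92% were higher and 4.09% lower at that p. On 18 libraries 1 of 19 tested members was higher and 1 lower, against 2.83% and 2.59% of all genes, and the median was -0.006. Npy, a peptide released with noradrenaline from sympathetic endings, had 10.8 ± 2.46 CPM in Sham and 17.4 ± 9.65 CPM in Sham+VNS. Sham+VNS replicates 1 and 2, at 29.0 and 26.8 CPM, were above all Sham libraries, and the other 3, at 9.06 to 11.1 CPM, lay within the Sham range. Ntrk2, the receptor of brain-derived neurotrophic factor, stood at 17.4, 6.29, 1.45, 8.73 and 4.28 CPM in Sham and 9.91, 14.4, 12.1, 15.6 and 17.5 CPM in Sham+VNS. Without Sham replicate 1 and Sham+VNS replicate 2 its groups did not overlap, which held for 396 of 14794 genes. Its log2 fold change went from 0.87 to 1.41 (edgeR adjusted p = 0.857). Vip and Tac1, airway nerve peptides below the count filter, gave exact two-sided permutation p-values of 0.0317 and 0.214, and adjusted over the 6 genes tested in this way 0.19 and 0.428. The smallest p that this test allows with 5 against 5 is 0.00794.

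The cytokines at the centre of the inflammatory reflex did not differ beyond their spread. Tnf stood at 2.05, 2.03, 1.82, 1.62 and 1.87 CPM in Sham and 1.41, 1.32, 1.44, 1.86 and 3.17 CPM in Sham+VNS. Its groups overlapped, and the log2 fold change was -0.03, with a 95% interval from -0.60 to 0.54. Il1b stood at 23.1, 24.3, 35.6, 29.8 and 40.1 CPM in Sham and 34.9, 39.2, 14.8, 22.5 and 24.4 CPM in Sham+VNS. It too overlapped, with an estimate of -0.17 (95% interval -0.65 to 0.30). Il6 was represented by 7 counts over the Sham libraries and 2 over the Sham+VNS libraries (exact permutation p = 0.0635, adjusted p = 0.191), and Il10 by 12 and 11 counts (exact permutation p = 0.976). These levels are those of an uninjured lung, in which the depth allows no statement on smaller differences of Il6 and Il10.

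Over the list of 32 tested cytokines and chemokines 0 passed, and 2 were higher and 7 lower at an unadjusted p below 0.05, with a median log2 fold change of -0.14. Over all genes 3.92% were higher and 4.09% were lower at that p. On 18 libraries 1 member was higher and 4 were lower, against 2.83% and 2.59% of all genes. No test of the list was made. Cxcl3, a neutrophil attractant, was the clearest on the higher side, with 29.6 to 54.6 CPM in Sham and 55.2 to 82.6 CPM in Sham+VNS and no overlap (0.59 ± 0.16, edgeR adjusted p = 0.485). Cxcl2, a related attractant, had means of only 0.0981 and 0.224 CPM and an unadjusted edgeR p of 0.0948. On the lower side after Ccl11 came Csf1, the macrophage growth factor, at -0.33 ± 0.11, and Ccl19, which guides dendritic cells and T cells, at -1.0 ± 0.35. Ccl24, a second eotaxin, had -1.52 on 20 libraries and -0.55 on 18.

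Signalling through NF-kappaB and Toll-like receptors was represented by 33 tested genes with a median log2 fold change of -0.03, with 0 passing, 0 higher and 3 lower at an unadjusted p below 0.05, against 4.09% of all genes lower. On 18 libraries 0 were higher and 4 lower, against 2.59% of all genes lower, with a median of -0.04. The 3 on 20 libraries were Nfkbia, Tnfaip3 and Sele, which NF-kappaB induces: the first 2 inhibit the pathway and Sele is the endothelial adhesion molecule E-selectin. Nfkbia stood at 107, 207, 125, 166 and 173 CPM in Sham and 120, 105, 95, 139 and 101 CPM in Sham+VNS, with overlap through Sham replicates 1 and 3 (log2 fold change -0.47 ± 0.15, edgeR adjusted p = 0.56). Sele stood at 1.73 to 3.74 CPM in Sham and 0.492 to 2.21 CPM in Sham+VNS (-1.15 ± 0.32, edgeR adjusted p = 0.485). The subunits Nfkb1 and Rela had estimates of 0.02 and -0.03.

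Stress hormone and early response genes had higher and lower means in Sham+VNS within the same lists. Of 22 tested glucocorticoid response genes 0 passed, 3 were higher and 4 lower at an unadjusted p below 0.05, against 3.92% and 4.09% of all genes, with a median of -0.12. On 18 libraries 4 were higher and 4 lower, against 2.83% and 2.59% of all genes, again with a median of -0.12. Zbtb16, a transcription factor strongly induced by glucocorticoids, stood at 21.1, 81.3, 104, 28.7 and 108 CPM in Sham and 203, 141, 57.7, 147 and 242 CPM in Sham+VNS. Sham+VNS replicate 3 lay inside the Sham range and the other 4 above it (log2 fold change 1.21 ± 0.38, edgeR adjusted p = 0.56). Fkbp5, a chaperone that restrains the glucocorticoid receptor and is induced by it, stood at 80.2 ± 30.6 CPM in Sham and 131 ± 62.9 CPM in Sham+VNS, with 234 CPM in Sham+VNS replicate 1 (0.70 ± 0.28, edgeR adjusted p = 0.603). Against these, Ddit4, an inhibitor of mTOR signalling, stood at 52.0 ± 21.0 and 31.9 ± 10.9 CPM (-0.71 ± 0.25, edgeR adjusted p = 0.567), and Tsc22d3, another classical target, had an estimate of -0.13. Nr3c1, the receptor itself, was at 282 to 301 CPM in Sham and 257 to 294 CPM in Sham+VNS (-0.11 ± 0.04, edgeR adjusted p = 0.568).

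Of 32 immediate early genes 0 passed, 1 was higher (Ier5) and 2 lower (Klf2 and Klf6) at an unadjusted p below 0.05, with a median of -0.11. Of all genes 3.92% were higher and 4.09% lower at that p. On 18 libraries 1 member was higher and 4 were lower, against 2.83% and 2.59% of all genes, with a median of -0.08. Fos, the usual marker of recent cell activation, stood at 3.53, 2.66, 5.59, 3.80 and 3.87 CPM in Sham and 2.95, 3.69, 2.95, 2.86 and 2.6 CPM in Sham+VNS, with overlap and an estimate of -0.37 (95% interval -0.74 to 0.0011). On 18 libraries its estimate was -0.48 (95% interval -0.90 to -0.066, edgeR unadjusted p = 0.0258, adjusted p = 0.898). Klf2, a flow-responsive factor of endothelium, spread from 29.6 to 66.9 CPM in Sham and from 33.4 to 37.6 CPM in Sham+VNS, so the Sham+VNS values lay within the Sham range. Among 20 clock genes 0 passed, 1 was higher (Clock) and 2 lower (Per1 and Bhlhe40) at an unadjusted p below 0.05, with a median of -0.10. On 18 libraries 1 clock gene was higher and 1 lower, with a median of -0.10. The shares over all genes are those given for the immediate early genes. Clock stood at 81.9 to 94.9 CPM in Sham and 97.0 to 105 CPM in Sham+VNS, with no overlap (0.19 ± 0.06, edgeR adjusted p = 0.56). Per1, a repressor of the clock that glucocorticoids also induce, had 143 ± 25.9 and 110 ± 26.9 CPM (-0.37 ± 0.14), and Arntl, the partner of Clock, 10.6 ± 3.96 and 16.1 ± 4.00 CPM (0.60 ± 0.31). The hour of tissue collection is absent from the labels, and its part in these values was not tested.

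Alveolar fluid genes were followed with the surfactant proteins. Of 23 tested surfactant and fluid transport genes 0 passed, and 5 were higher and 0 lower at an unadjusted p below 0.05, against 3.92% of all genes higher, with a median of 0.14. The 5 were Sftpd, Nedd4l, Scnn1b, Atp1b1 and Slc12a2. On 18 libraries 6 were higher and 0 lower, against 2.83% of all genes higher, with a median of 0.10. Sftpd, a collectin that binds microbes and regulates surfactant, stood at 473, 567, 736, 642 and 542 CPM in Sham and 712, 668, 1020, 815 and 994 CPM in Sham+VNS, with overlap only through Sham replicate 3 (0.51 ± 0.14, edgeR adjusted p = 0.485). Scnn1b, a subunit of the epithelial sodium channel, had 30.5 ± 6.88 and 42.2 ± 8.06 CPM, and Atp1b1, a subunit of the sodium pump, 306 ± 103 and 433 ± 102 CPM. Nedd4l, the ligase that removes the sodium channel from the surface, was likewise higher in mean, at 160 ± 42.6 and 225 ± 43.7 CPM. Scnn1a, another subunit of the sodium channel, had an estimate of 0.14, and Sftpc of 0.12 (95% interval -0.14 to 0.37). The summed level of 15 alveolar type 2 markers ran from 35590 to 53020 CPM in Sham and from 39380 to 56740 CPM in Sham+VNS, lowest in each group in the libraries with most Adipoq. In bulk tissue more cells of a type and more RNA per cell cannot be told apart.

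**Figure D4:**
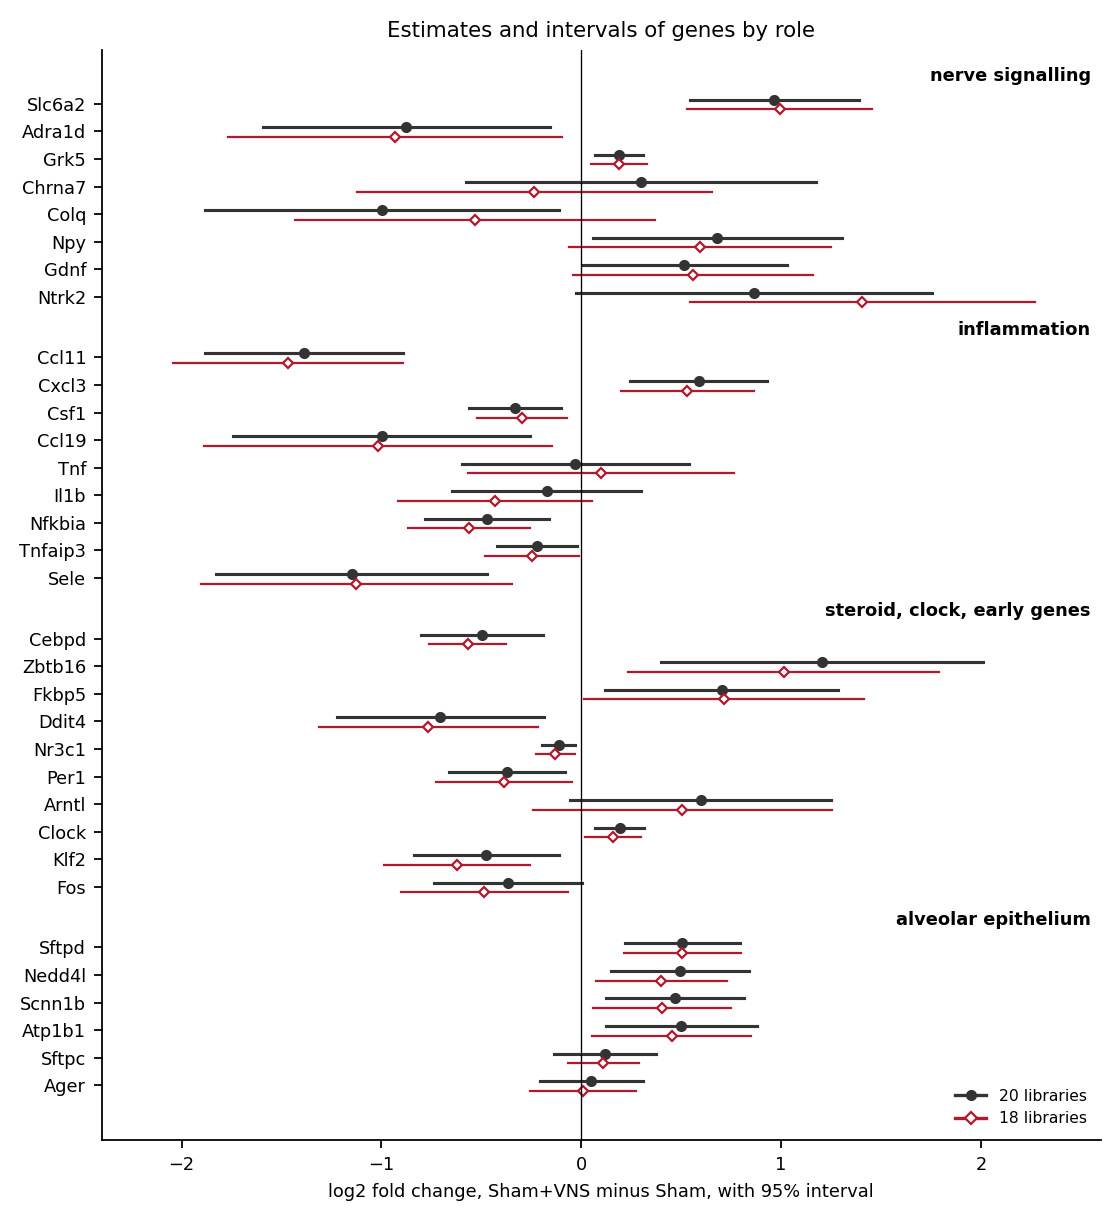
Log2 fold change (Sham+VNS minus Sham) with its 95% interval for 33 genes by role, on 20 libraries (black) and on 18 (red, open diamonds). The intervals of Tnf, Il1b, Chrna7, Sftpc and Ager cross 0 in both fits, and no gene drawn passed the adjusted threshold with edgeR in either.

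Cell cycle and lymphocyte lists had medians away from that of all genes in both fits, without a gene that passed. The 28 cell cycle genes had a median of 0.35 on 20 libraries and 0.36 on 18, with 22 of them above 0 on 20, against 7069 of 14794 for all genes, and 0 passed. Ccnb1 and Ccnb2, the mitotic cyclins, stood at 2.90 ± 0.782 and 2.62 ± 1.12 CPM in Sham and 4.35 ± 1.45 and 4.34 ± 1.68 CPM in Sham+VNS, while Mcm2, of the replication helicase, was lower in mean, at 17.4 ± 0.984 against 15.0 ± 1.52 CPM. The highest Ccnb1 and Ccnb2 values, 6.66 and 7.07 CPM, were both in Sham+VNS replicate 3. The mean log2 CPM over the cell cycle list was 3.395 and 3.108 in Sham+VNS replicates 3 and 5, above the 2.176 to 2.785 of Sham. In Sham+VNS replicates 1, 2 and 4 it was 2.28, 2.563 and 2.691, within the Sham range. Its group median was 2.735 in Sham and 2.691 in Sham+VNS. No fit left out Sham+VNS replicates 3 and 5 together, so their joint part in the positive list median was not tested. Lymphocyte markers had negative medians in both fits: -0.37 on 20 libraries and -0.47 on 18 for 17 B and plasma cell markers, -0.21 and -0.17 for 20 T cell markers, and -0.22 and -0.21 for 15 natural killer markers, with 0 passing in each. At an unadjusted p below 0.05, 2 of the 17 B and plasma cell markers were lower on 20 libraries and 4 on 18. The shares lower over all genes were 4.09% and 2.59%. T cell markers had 2 lower in each fit and natural killer markers 0, and no member of these lists was higher at that p. Cd79a, of the B cell receptor, stood at 11.7 to 33.8 CPM in Sham and 12.1 to 18.3 CPM in Sham+VNS. Neutrophil markers had a median of -0.001 on 20 libraries and -0.24 on 18, and endothelial markers of 0.01 and -0.03.

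Ribosomal protein genes, of which 24 were tested, had 0 estimates above 0 and a median of -0.08 on 20 libraries, 3 above 0 and a median of -0.05 on 18, and 0 passed. Their single values are uncertain, because reads from near-identical retained copies may be divided among genes. Collagen and matrix genes had a median of -0.15 that went to -0.002 on 18 libraries. Within them Col15a1, a basement membrane collagen, stood at 86.1 ± 37.0 CPM in Sham and 40.9 ± 13.9 CPM in Sham+VNS, and Lox, which cross-links collagen and elastin, at 214 ± 44.2 and 300 ± 71.5 CPM, both with an edgeR adjusted p over 0.48. Serpina1, the antiprotease alpha-1 antitrypsin, ranged from 16.4 to 30.3 CPM in Sham and from 28.0 to 98.6 CPM in Sham+VNS, with 98.6 and 76.8 CPM in Sham+VNS replicates 1 and 2 and 28.0 to 36.6 CPM in the other 3.

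The remaining lists, none with a gene that passed, had medians near that of all genes for stress and metabolism. Heat shock, unfolded protein, hypoxia, oxidative stress, sterol, fatty acid, oxidative phosphorylation and acute phase genes had medians from -0.06 to 0.03 on 20 libraries. Interferon response genes had a median of -0.07, and -0.16 on 18 libraries. Their mean log2 CPM was 5.942 in Sham replicate 2, against at most 5.346 in the other Sham libraries and 4.948 to 5.524 in Sham+VNS. The group medians of that mean were 5.186 in Sham and 5.33 in Sham+VNS. On 20 libraries 0 of 35 were higher and 1 lower at an unadjusted p below 0.05, against 3.92% and 4.09% of all genes. Complement and coagulation genes had 0 higher and 4 of 27 lower at that p on 20 libraries, where 4.09% of all genes were lower. On 18 libraries 1 of 27 was lower, where 2.59% of all genes were. The medians were -0.11 and -0.04. Among structural cells, fibroblast markers had -0.21 and -0.10, and smooth muscle and pericyte markers -0.18 and -0.14. Monocyte and macrophage markers went from -0.07 on 20 libraries to 0.10 on 18, and dendritic cell markers had -0.08 and -0.09. Neuron and Schwann cell markers, of which 6 each could be tested on 20 libraries, had -0.22 and -0.08 there and 0.11 and 0.005 on 18, so both signs turned.

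**Figure D5:**
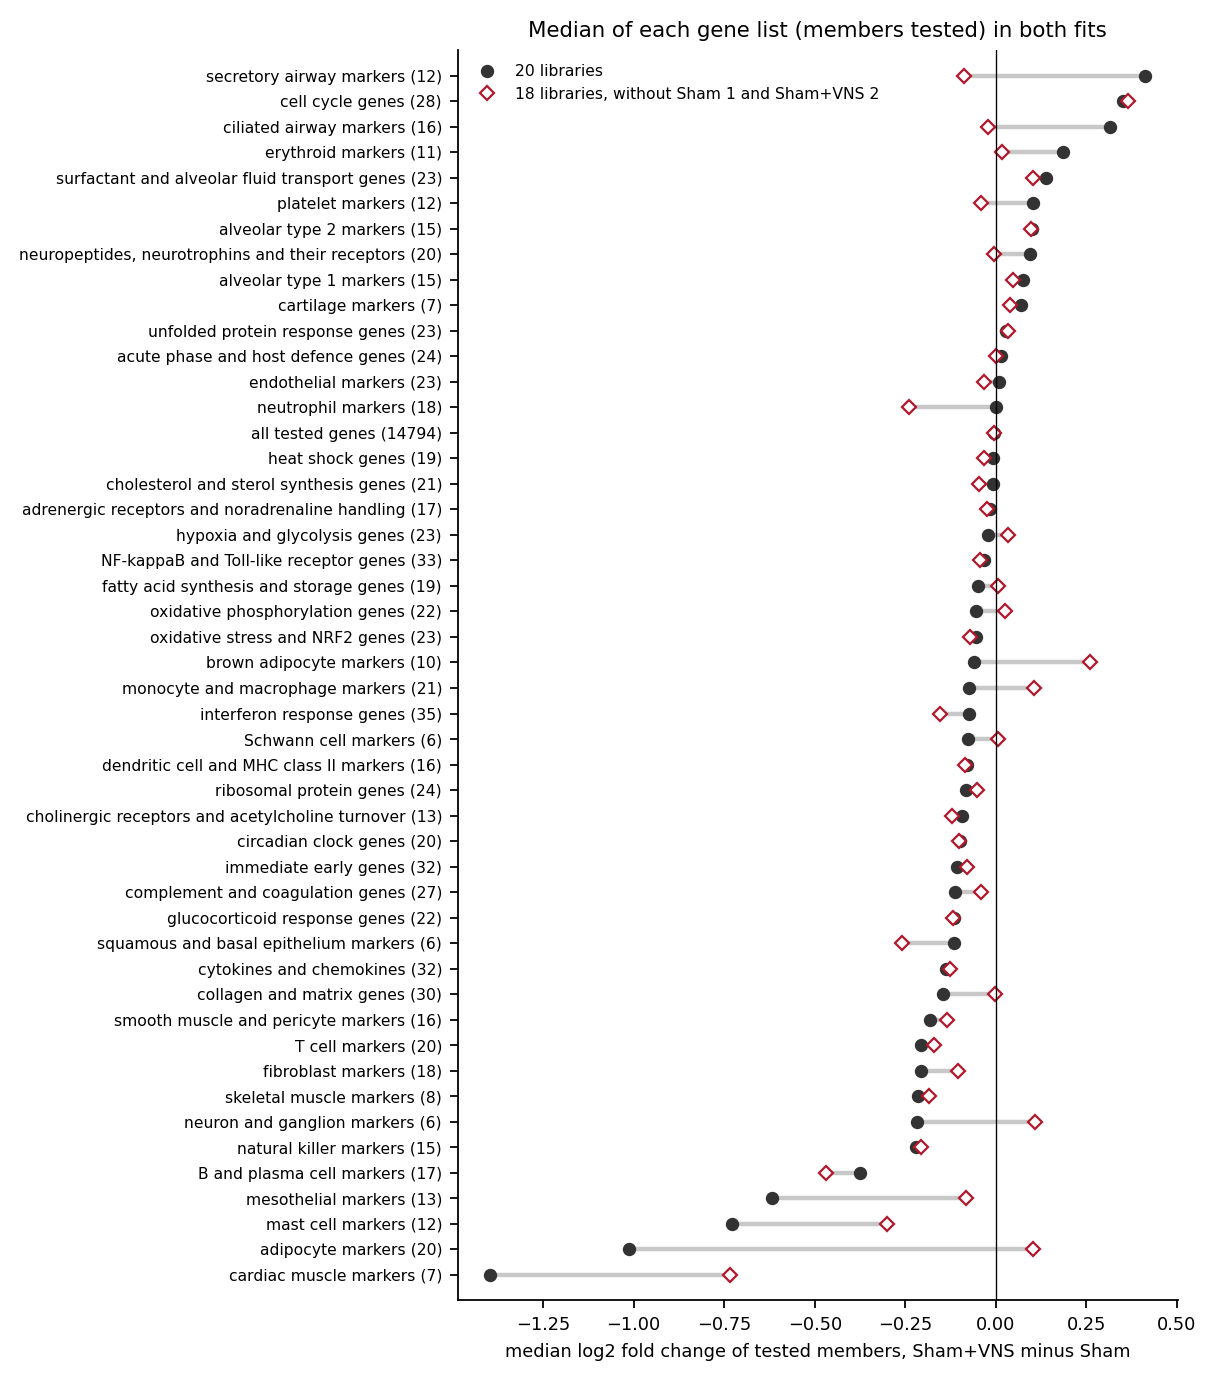
Median log2 fold change (Sham+VNS minus Sham) over the tested members of each gene list with 6 or more, with the number of members in brackets, on 20 libraries (black) and on 18 (red, open diamonds), joined by a grey line. Long lines mark lists whose median depends on Sham replicate 1 and Sham+VNS replicate 2, above all adipocyte, cardiac muscle, mesothelial, mast cell and airway markers.

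The largest list medians belonged to cells from outside the alveoli and followed single libraries. The 20 tested adipocyte markers had a median of -1.01 on 20 libraries and, of 18 testable, 0.10 on 18. Pck1, an enzyme of fat and liver metabolism, went from -2.30 to 2.83, its CPM being 247 in Sham replicate 1, 12.6 in Sham+VNS replicate 2, 37.3 in Sham+VNS replicate 4 and no more than 4.47 in the others. Of the 24 adipocyte markers in the table, 0 to 4 were at 0 CPM in a Sham library and 0 to 4 in a Sham+VNS library. Their summed level was 758.9 to 5790 CPM in Sham and 859.7 to 2060 CPM in Sham+VNS. The 10 tested brown adipocyte markers went from -0.06 on 20 libraries to 0.26 on 18. Their summed level was 271.3 CPM in Sham replicate 1 and 266.1 CPM in Sham+VNS replicate 4, against 90.2 to 103.9 CPM in the other 8. Sham+VNS replicate 4 stayed in the 18-library fit, which therefore still held uneven fat tissue. Mesothelial markers went from -0.62 to -0.08, secretory airway markers from 0.41 to -0.09 and ciliated airway markers from 0.32 to -0.02. The 12 mast cell markers went from -0.73 to -0.30, with Cma1, a mast cell protease, at 19.1 CPM in Sham replicate 1 and 6.68 CPM in Sham+VNS replicate 2 against 0.357 to 1.73 CPM in the other 8.

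Cardiac muscle markers kept a negative median, -1.40 on 20 and -0.73 on 18 libraries, and 0 of 7 tested members were above 0 in either fit. Without Sham replicates 1 and 5, the libraries with most Tnnt2, the median was -0.21. The summed level of 20 such markers was 42.08 to 281.2 CPM in Sham and 26.13 to 45.99 CPM in Sham+VNS, and 1 to 10 of them were at 0 CPM in a Sham library and 3 to 11 in a Sham+VNS library. Without Sham replicates 1 and 5, 0 genes passed with edgeR (smallest adjusted p = 0.23).

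Dsg3, a desmosomal cadherin of squamous epithelium, had the largest estimate of the comparison and was counted in 5 Sham libraries and 0 Sham+VNS libraries. Its CPM was 2.68, 6.29, 6.03, 4.79 and 0.0691 in Sham and 0 in every Sham+VNS library. Over the group, 280 counts in Sham stood against 0 in Sham+VNS, which with a floor of 3 counts over the group is at least 94.6-fold lower, a bound that covers counting error only. In edgeR the gene had an unadjusted p of 0.051, and DESeq2 gave an adjusted p of 1.06e-09, while over all alternatives the adjusted p reached 0.942. In the CLP-operated groups Dsg3 was at 26.2 CPM in CLP replicate 1 and 27.1 CPM in CLP+VNS replicate 1 and at most 0.141 CPM in the other 8. The predicted transcript model held 99.1% of its mean TPM in Sham and the curated model 0.899%. Krt76 and Pkp1, other squamous and basal epithelium markers, were counted in both groups. Krt76 had 19.1 to 32.9 CPM in Sham and 10.9 to 25.5 CPM in Sham+VNS. Pkp1 had 2.03 to 4.52 and 2.18 to 5.29 CPM. Of the 6 tested members of that list, Dsg3 among them, 2 had an estimate above 0 on 20 libraries and 0 on 18. The list medians were -0.12 and -0.26.

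Whether the stimulation effect after CLP differed from that in sham animals was tested directly. No gene passed for this difference with edgeR (0 of 14794, 0%, smallest adjusted p = 0.5, 1217 genes at an unadjusted p below 0.05). For Ccl11 the CLP libraries stood at 2.27 to 7.97 CPM and the CLP+VNS libraries at 4.09 to 6.49 CPM, so the 4.43 to 6.05 CPM of Sham+VNS lay within the range of the CLP groups and Sham above it. The difference of its 2 stimulation effects was 1.4 on the log2 scale (edgeR adjusted p = 0.5). Slc6a2 stood at 73.9 to 123 CPM in CLP and 88.3 to 134 CPM in CLP+VNS, above all Sham libraries, with a difference of effects of -0.89 (edgeR adjusted p = 0.512). Zbtb16 stood at 274 to 335 CPM in CLP and 270 to 397 CPM in CLP+VNS, and Cebpd at 186 to 235 and 184 to 237 CPM, both above every sham-operated library. Cebpd in Sham+VNS was thus farther from the CLP levels than in Sham, and Ccl11, Slc6a2 and Zbtb16 were nearer to them. These levels share the Sham libraries and are given as a description.

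Other ways of testing called few genes. DESeq2 passed 6 genes, with Slc6a2 higher and Ccl11, Mrps34, Pianp, Gcsam and Dsg3 lower. Gcsam, a signalling protein of germinal centre B cells that was added after its values were seen, stood at 8.64 to 10.5 CPM in Sham and 5.56 to 7.39 CPM in Sham+VNS, with no overlap (log2 fold change -0.53 ± 0.11, edgeR adjusted p = 0.485). Limma on log2(TPM + 0.1) passed 0, with a smallest adjusted p of 0.0923 and 1091 genes at an unadjusted p below 0.05. Leaving out Sham replicate 3 passed 2 genes with edgeR, Nebl, an actin-binding protein (0.38, adjusted p = 0.0128), and Tmprss4, an epithelial serine protease (1.42, adjusted p = 0.0401). Tmprss4 stood at 14.5 CPM in Sham replicate 3, at 4.27 to 5.22 CPM in Sham replicates 1, 2, 4 and 5, and at 10.2 to 14.7 CPM in Sham+VNS. Over their alternatives the adjusted p of Nebl reached 0.908 and that of Tmprss4 0.927. Of the 118 genes with no overlap, 5 had an estimate of at least 2-fold: Ccl11, Pianp, Dsg3, Prph, a neuronal intermediate filament (-1.47), and Sytl5, a vesicle trafficking protein (-1.07), all lower in Sham+VNS and the last 2 also picked after their values were seen. Prph was highest, at 43.0 CPM, in Sham replicate 1, and its estimate was -0.99 on 18 libraries.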

How the data were processed

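RNA of rat lung was sequenced in 20 poly(A)-selected, strand-marking libraries read from both ends, per the labels' protocols. The authors deposited values that behave as estimated counts, not normalized, per gene and per transcript, of which 91.5% of the gene values are whole. The authors also deposited TPM, per the file headers. The build mRatBN7.2 stands in the submitters' processing notes. Which aligner and counter were run, and with which strand setting, was not given in the sources used here. FPKM, the authors' normalized values and group averages were not used.

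Groups came from the treatment label and replicate numbers from the titles. Counts were rounded, filtered with filterByExpr (minimum count 10), TMM-scaled and fitted as 4 group means to 20 libraries with edgeR 4.0.16 (quasi-likelihood, robust, 16 residual degrees of freedom), and again to 18. A gene passed at a Benjamini-Hochberg adjusted p below 0.05 over all genes tested. Tests were two-sided. The common biological coefficient of variation was 0.161. DESeq2 1.42.0 on the same counts and limma 3.58.1 on log2(TPM + 0.1) were alternatives, beside other scalings, no filter, a replicate block and each library left out in turn. Genes under the filter were compared by exact permutation over the 252 splits. The code was tested on simulated counts.

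The comparison and the 50 gene lists were chosen with earlier results of these data known. By the naming rule, the text takes the 6 genes of lowest p per direction in the 18-library fit with an established symbol and at least 1 CPM, up to 4 lowest-p members of a list, and a fixed set of genes. Gcsam, Nebl, Tmprss4, Klf10, Prph, Sytl5, Dsg3, and list members named only with an estimate or a TPM range (such as Cxcl2, Ccl24, Tsc22d3 and Scnn1a), were picked after their values were seen. Of 19060 gene identifiers, 18800 were found in the RefSeq table of GRCr8, used for names only.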

Additional observations from a re-analysis of the deposited data

Results flagged for a closer look

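A library was flagged where its CPM lay apart from the other 4 of its group by Dixon's criterion at the 95% level. Of 45 groups checked for 23 genes, 8 had such a library. Chance flags about 1 in 20 only where genes are picked without regard to their values. The 23 genes were picked by their values in part and include Adipoq and Tnnt2, whose uneven levels are described above. The 8 therefore cannot be set against that rate. Anxa3 was 387 CPM in Sham+VNS replicate 4, below the 460 to 482 CPM of the others. Slc6a2 was 56.4 CPM in Sham replicate 5, above 28.4 to 33.6 CPM, and 105 CPM in Sham+VNS replicate 1, above 52.9 to 67.6 CPM. In Sham replicate 1 Rab3a was 14.0 CPM, below 19.5 to 21.0 CPM, and Gcsam was 10.5 CPM, above 8.64 to 9.08 CPM. Also in Sham replicate 1, Adipoq was 285 CPM against at most 9.72 CPM, and Tnnt2 was 24.6 CPM against 1.05 to 7.32 CPM. Adipoq was 96.3 CPM in Sham+VNS replicate 2 against at most 16.2 CPM.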

How the results depend on the processing

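The count of genes passing was 0 with edgeR on 20 and on 18 libraries. It was also 0 with DESeq2 size factors, total count scaling, no filter (19040 genes tested) and limma, and, in alternatives chosen after seeing the data, without the 4 libraries above 5 CPM of Adipoq and without the 2 libraries with most Tnnt2. It was 1 (0 higher, 1 lower) with only the 10 sham-operated libraries, and 6 (1 higher, 5 lower) with DESeq2. Leaving out each library in turn gave 0 to 2 genes (0 to 2 higher, 0 lower). On the 18-library set it gave 0 to 4 genes (0 to 2 higher, 0 to 2 lower); in both sets only leaving out Sham replicate 3 gave more than 0, which in the smaller set passed Klf10 and Nebl (higher) and Klf2 and Cebpd (lower). Same-numbered libraries shared little of their deviation from the group means. The correlations ran from -0.146 to 0.135, and 1 of 5 libraries correlated best with its own number. Whether the libraries were paired by design cannot be told from these values. The fit with the replicate number as a block called 0 genes, with a smallest adjusted p of 0.174. The difference of the effects after CLP and in sham animals had 0 genes in each of the 14 alternatives run. Of 90 named genes with an unadjusted p below 0.05, the sign turned for 2: Acvr1c, a fat cell gene, from -1.59 to 0.37 without Sham replicate 1 (-2.02 to 0.37 over all single libraries left out) and 0.30 without the 2 libraries with most Tnnt2, and Tnni3, cardiac troponin I, from -2.23 to 0.38 without those 2. Of all 212 named genes tested the sign turned for 26 in at least 1 alternative. The causes were not tested beyond the marker values given. Depth limits genes under 1 CPM most, and 5 libraries a group leave changes under about 1.5-fold unresolved for part of the genes.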
